A study of Homo sapiens with 40 samples.

Results

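The nuclear lamina and the LINC complex (linker of nucleoskeleton and cytoskeleton) were examined through the transcripts of 10 genes, LMNA, LMNB1, LMNB2, LBR, EMD, TMPO, BANF1, SUN1, SUN2 and SYNE2, chosen by symbol. All 10 were found among the 62486 genes of the count table, and all 10 passed the filter on low counts. The series set A549 cells labelled control (CT), a human lung adenocarcinoma line, against A549 cells in which SETDB1, a histone methyltransferase that places H3K9me3, was disrupted with CRISPR/Cas9 from a PX458 plasmid (KO). Of its 40 samples, the RNA-seq libraries used here numbered 3 per genotype, and the other samples were ChIP-seq, input and Hi-C libraries. The labels name no age, time or agent beyond the edit, and they do not say whether the KO cells are 1 clone, whether the control cells received the plasmid, or whether the 3 libraries came from separate cultures. The p-values therefore measure the spread between these libraries, which may be technical.

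The lamina is a mesh of intermediate filament proteins beneath the inner nuclear membrane. Lamin A and lamin C, both made from LMNA, are known to set much of the stiffness of the nucleus, while the B-type lamins stay bound to the membrane through a farnesyl tail. Inner membrane proteins such as the lamin B receptor (LBR) and the LEM-domain proteins emerin (EMD) and LAP2 (TMPO) tie the lamina to chromatin, the latter with the DNA-bridging protein BAF (BANF1). SUN proteins of the inner membrane join KASH proteins of the outer membrane, among them nesprin-2 (SYNE2), and so couple the lamina to the cytoskeleton. The series title names the mechanical properties of chromatin among its subjects, and the RNA levels of these proteins are the part of that question that gene counts can address.

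Library totals ran from 18065062 to 48364919 counts, and mitochondrially encoded genes took 21.0% to 24.0% of them. Most of that was the mitochondrial ribosomal RNA MT-RNR2, at 18.7% to 21.5% of all counts. SETDB1 itself was lower in KO, at 21.9 ± 1.32 CPM (counts scaled to library size; SD, n = 3) against 38.6 ± 1.04 CPM in controls, with all 3 KO libraries below all 3 controls. The 6 epithelial markers summed to 4395 to 4808 CPM in control and 10440 to 11200 CPM in KO libraries, with none of them at 0. Most of this sum was KRT8, KRT18 and KRT7, all on chromosome 12. Their means were 2271, 779 and 1550 CPM in control and 6594, 2583 and 1662 CPM in KO. The 7 fibroblast markers summed to 4.81 to 5.02 and 4.98 to 5.46 CPM, with COL1A2 and DCN at 0 counts in all libraries. Within that sum the mean of PDGFRA went from 1.30 CPM in control to 0.13 CPM in KO. Those of COL1A1 and COL3A1 went up, from 3.10 to 3.83 and from 0.32 to 0.87 CPM. The 7 leukocyte markers summed to 9.77 to 11.03 CPM in control and 6.02 to 7.84 CPM in KO. Most of that sum was CD14 and ITGAM, whose means went from 5.68 to 4.76 and from 4.21 to 1.57 CPM. The means of LYZ and CD68 went up, from 0.081 to 0.38 and from 0.037 to 0.079 CPM. CD3E was at 0 throughout and PTPRC at no more than 1 count a library. Of the endothelial markers, 5 were matched, and they summed to 0.722 to 1.104 CPM in control and 4.45 to 5.86 CPM in KO libraries, mostly through CDH5. The part of these markers in the results below was not tested.

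To ask whether these genes differed between genotypes, each was tested with edgeR's quasi-likelihood test and Benjamini-Hochberg adjustment over all 17767 genes tested. LMNA rose in KO cells, to 1.40 times its control level, and SUN2 was called higher at 1.13 times. LMNB1 and TMPO fell, to 89.6% and 91.9% of control. The other 6 genes did not pass an adjusted p of 0.05. Thus 4 of 10 genes were called, 2 in each direction, where 62.8% of all tested genes were called, 32.8% higher and 30% lower. The median absolute log2 fold change was 0.089 over the 10 genes and 0.34 over all tested genes, and no member changed by 2-fold. The lowest genotype mean of the 10 genes was 32.7 CPM (EMD in KO), while the filter lay at 0.4261 CPM. Members and all tested genes were thus not matched for expression level. The 3 libraries of each genotype did not overlap for LMNA, LMNB1, TMPO and LBR, 4 of 10, where 65.8% of all tested genes showed no overlap. The count of 4 called genes became 2 without KO replicate 2 and 2 without KO replicate 3. Those fits called 10174 of 18310 and 10636 of 18430 tested genes. With the replicate number as a block it became 7, 3 higher and 4 lower, LMNB2, LBR and SYNE2 being added. The block fit called 11655 of 17767 tested genes, 6060 higher and 5595 lower. Whether the numbers pair the libraries depended on the genes the check used.

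**Figure D1:**
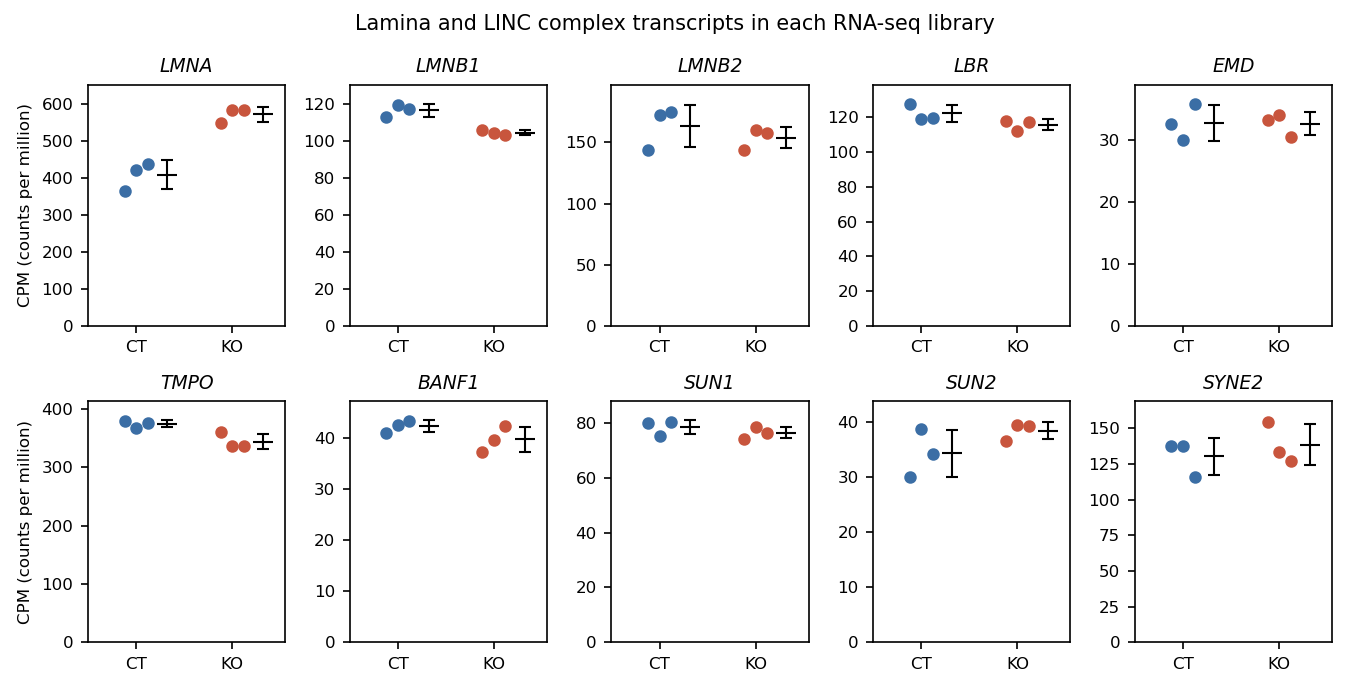
CPM (counts scaled to library size, linear axis from 0) of each of the 10 genes in the 3 control (CT, blue) and 3 SETDB1 knockout (KO, red) RNA-seq libraries; the bar beside each group is the mean ± SD. The KO points of LMNA, at 549 to 586 CPM, lie above all control points, and those of LMNB1 and TMPO lie slightly below theirs.

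LMNA (ENSG00000160789, chromosome 1) encodes both A-type lamins, which the counts per gene do not separate. It was measured at 366, 423 and 439 CPM in control replicates 1 to 3 and at 549, 584 and 586 CPM in KO replicates 1 to 3. The lowest KO library lay above the highest control library, and control replicate 1 was the lowest of all. The log2 fold change was 0.49 (SE 0.056), with an edgeR adjusted p of 8.7e-07. The change held past the threshold in all 16 alternative fits, with log2 fold changes of 0.41 to 0.54. In size it exceeded 63.3% of all tested genes.

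LMNB1 (ENSG00000113368, chromosome 5) encodes lamin B1. Its levels were 113, 120 and 117 CPM in control and 106, 104 and 103 CPM in KO libraries. The groups did not overlap, but the highest KO and the lowest control library were close. The log2 fold change was -0.16 (SE 0.044, edgeR adjusted p 0.0024), and it too passed in all 16 alternative fits, where it lay between -0.19 and -0.12.

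LMNB2 (ENSG00000176619, chromosome 19) encodes lamin B2 and read 144, 172 and 175 CPM in control against 144, 160 and 158 CPM in KO libraries. Replicate 1 was the lowest library of each genotype, and the groups overlapped. Its log2 fold change was -0.088 with a 95% interval of -0.22 to 0.047 (edgeR adjusted p 0.29; 0.020 with the replicate number as a block). Without control replicate 1 it was -0.17 with an adjusted p of 0.00098. The 1137 tested genes of chromosome 19 were centred on 0.34, and LMNB2 lay 0.43 below that median; the part of the chromosome in this value was not tested.

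TMPO (ENSG00000120802, chromosome 12) encodes the LAP2 isoforms, of which the alpha form lies inside the nucleus and the others in the inner membrane. Control libraries held 379, 368 and 376 CPM and KO libraries 360, 335 and 337 CPM. All 3 KO libraries lay below all 3 controls, with KO replicate 1 nearest to them. The log2 fold change was -0.12 (SE 0.041, edgeR adjusted p 0.011). It missed the threshold without KO replicate 2 (-0.10, adjusted p 0.059), without KO replicate 3 (-0.11, adjusted p 0.052) and with no filter on low counts (-0.087, adjusted p 0.14). Chromosome 12 as a whole was shifted up, by a median of 0.37 over 854 tested genes, and TMPO lay 0.49 below that median. TMPO-AS1, whose RefSeq interval overlaps that of TMPO, was called higher, from 4.51 ± 1.14 to 6.15 ± 0.89 CPM (SD, n = 3; log2 fold change 0.41, edgeR adjusted p 0.020), with groups that overlapped. That call was lost without control replicate 2 and without KO replicate 2. Whether the counting used strand is not given in the sources used here, so reads of the 2 genes may be mixed.

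Sequence upstream of the start is shown for LMNA, LMNB1 and TMPO, the members whose control and KO libraries did not overlap and which were called. For each, the window is the 250 bases before the most upstream start in the RefSeq table on GRCh38.p14, a newer build than the hg19 that the submitters' processing notes name. The windows are chr1:156082323-156082572 (plus strand), chr5:126776373-126776622 (plus strand) and chr12:98515323-98515572 (plus strand). Capitals mark matches, on either strand, to 4 short motifs: CCAAT, the CHR element TTTGAA of cell cycle promoters, the E2F-like element TTTCCCGC and the GC box GGGCGG.
LMNA: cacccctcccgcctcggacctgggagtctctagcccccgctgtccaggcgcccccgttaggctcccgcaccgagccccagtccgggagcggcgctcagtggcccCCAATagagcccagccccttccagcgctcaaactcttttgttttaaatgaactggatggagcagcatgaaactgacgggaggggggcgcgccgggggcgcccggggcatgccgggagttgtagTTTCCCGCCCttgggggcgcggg
LMNB1: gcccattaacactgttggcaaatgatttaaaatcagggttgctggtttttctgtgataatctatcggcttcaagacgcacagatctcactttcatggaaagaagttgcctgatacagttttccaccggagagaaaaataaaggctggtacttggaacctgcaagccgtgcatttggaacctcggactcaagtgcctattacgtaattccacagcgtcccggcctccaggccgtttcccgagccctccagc
TMPO: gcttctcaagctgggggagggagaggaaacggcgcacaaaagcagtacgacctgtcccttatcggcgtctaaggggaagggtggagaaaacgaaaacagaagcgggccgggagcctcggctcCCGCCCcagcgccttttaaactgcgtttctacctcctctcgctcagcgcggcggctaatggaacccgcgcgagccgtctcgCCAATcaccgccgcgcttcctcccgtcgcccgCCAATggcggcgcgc
The LMNA window held 1 CCAAT, and 1 E2F-like element that overlaps 1 GC box. The TMPO window held 2 CCAAT and 1 GC box, and the LMNB1 window held none of the 4. Other starts in the table gave other matches: the second LMNB1 window (chr5:126776886-126777135) held 1 CCAAT and 4 GC boxes, and the other LMNA windows held GC boxes only, 1 and 2. Among all 35116 windows of this length, 32% held CCAAT, 13.3% TTTGAA, 1.39% TTTCCCGC and 42.6% GGGCGG. These matches are letters in a window and not sites, and which start A549 cells use was not measured. Of the 10 genes, 9 had a window in the table; SUN1 had none.

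LBR (ENSG00000143815, chromosome 1), an inner membrane protein that binds lamin B and heterochromatin and is also a sterol reductase, read 128, 119 and 120 CPM in control and 118, 112 and 117 CPM in KO libraries. The highest KO library lay just below the lowest control library. The log2 fold change was -0.080 with a 95% interval of -0.17 to 0.0074 (edgeR adjusted p 0.12; 0.038 with the replicate block). It passed the threshold under upper quartile scaling only among the scalings tried (-0.12, adjusted p 0.025).

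The transcripts of emerin and BAF were not called in either direction. EMD (ENSG00000102119, chromosome X) ranged from 30.0 to 35.8 CPM in control and from 30.6 to 34.2 CPM in KO libraries. Its log2 fold change of -0.0089 had a 95% interval of -0.13 to 0.12 (edgeR adjusted p 0.91), and its sign depended on the scaling, being 0.022 with library size only. BANF1 (ENSG00000175334, chromosome 11) ranged from 41.1 to 43.4 CPM in control and from 37.4 to 42.4 CPM in KO libraries, a log2 fold change of -0.090 (95% interval -0.20 to 0.019, edgeR adjusted p 0.16). BANF1 has processed copies, and the 5 that the table lists held 0 to 12 counts a library, against 773 to 1960 counts for BANF1.

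Of the LINC complex, the SUN proteins come first. SUN1 (ENSG00000164828, chromosome 7) ranged from 75.3 to 80.1 CPM in control and from 74.2 to 78.3 CPM in KO libraries, and its log2 fold change of -0.039 had a 95% interval of -0.13 to 0.053 (edgeR adjusted p 0.49). SUN2 (ENSG00000100242, chromosome 22) read 30.1, 38.6 and 34.2 CPM in control and 36.6, 39.5 and 39.3 CPM in KO libraries. Its groups overlapped, since control replicate 2 lay above KO replicate 1. Its log2 fold change was 0.17 (SE 0.069, edgeR adjusted p 0.032). Of the 16 alternative fits, 9 kept the call. It was lost without control replicate 1 (0.095, adjusted p 0.18), control replicate 3 (0.18, adjusted p 0.062), KO replicate 2 (0.15, adjusted p 0.15) or KO replicate 3 (0.16, adjusted p 0.12), and in DESeq2 (0.17, adjusted p 0.066).

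SYNE2 (ENSG00000054654, chromosome 14), the giant outer membrane protein that binds actin, read 138, 138 and 116 CPM in control and 155, 133 and 127 CPM in KO libraries. The groups overlapped, and replicate 3 was the lowest library of each genotype. KO minus control was 0.086 on the log2 scale, with a 95% interval of -0.094 to 0.27 (edgeR adjusted p 0.45; 0.044 with the replicate block), the widest interval of the 10 genes. Over the 6 fits that left out 1 library it ranged from 0.0034 to 0.14, past the threshold in none of them.

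**Figure D2:**
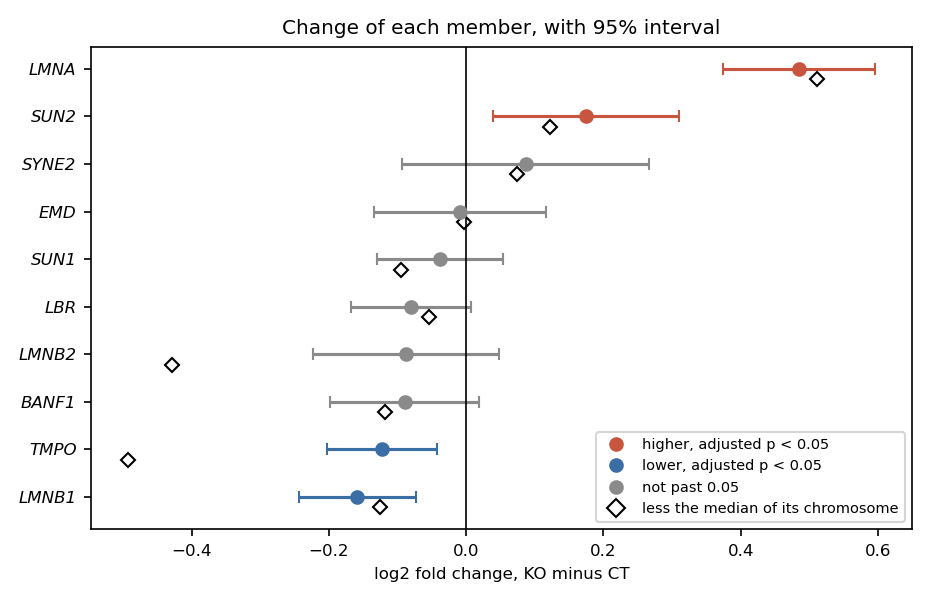
Log2 fold change (KO minus control) of each of the 10 genes with its 95% interval; red and blue mark genes called higher and lower at an edgeR adjusted p under 0.05 and grey the rest, and diamonds give the same value less the median of all tested genes of that chromosome. LMNA stands at 0.49, while the other 9 lie between -0.16 and 0.17; only LMNB2 and TMPO shift by over 0.3 when their chromosome median is taken off.

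Ratios of members within a library do not depend on scaling between libraries, so 6 of them were compared. Counts are not corrected for transcript length, so the size of a ratio is not a ratio of molecules, and its change is what was compared. LMNA counts were 3.24, 3.54 and 3.75 times LMNB1 counts in control and 5.18, 5.61 and 5.69 times in KO libraries. All KO libraries exceeded all controls, and the mean ratio was 1.57 times the control value (log2 difference 0.65). The two-sided exact permutation p was 0.10, the smallest that 3 against 3 libraries can give, and 0.20 after adjustment over the 6 ratios.

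The ratio of LMNA to LMNB2 counts was tight within genotypes, at 2.54, 2.46 and 2.51 in control and 3.81, 3.65 and 3.72 in KO libraries. In KO it was 1.49 times the control value, without overlap (log2 difference 0.57, exact permutation p 0.10, adjusted 0.20). The ratio of LMNA to LBR counts was 2.86, 3.55 and 3.67 in control and 4.65, 5.21 and 5.01 in KO libraries. It differed 1.48-fold, again with no overlap and the same exact permutation p values. The remaining ratios overlapped between genotypes. LMNB1 to LMNB2 differed by -0.073 on the log2 scale (exact permutation p 0.50, adjusted 0.50), SUN2 to SUN1 by 0.21 (p 0.30, adjusted 0.36, exact permutation) and EMD to TMPO by 0.12 (p 0.30, adjusted 0.36, exact permutation). Control replicate 1 had the lowest LMNA to LMNB1, LMNA to LBR and SUN2 to SUN1 ratios; without it the SUN2 to SUN1 difference was 0.11 and that of LMNB1 to LMNB2 was -0.0061.

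**Figure D3:**
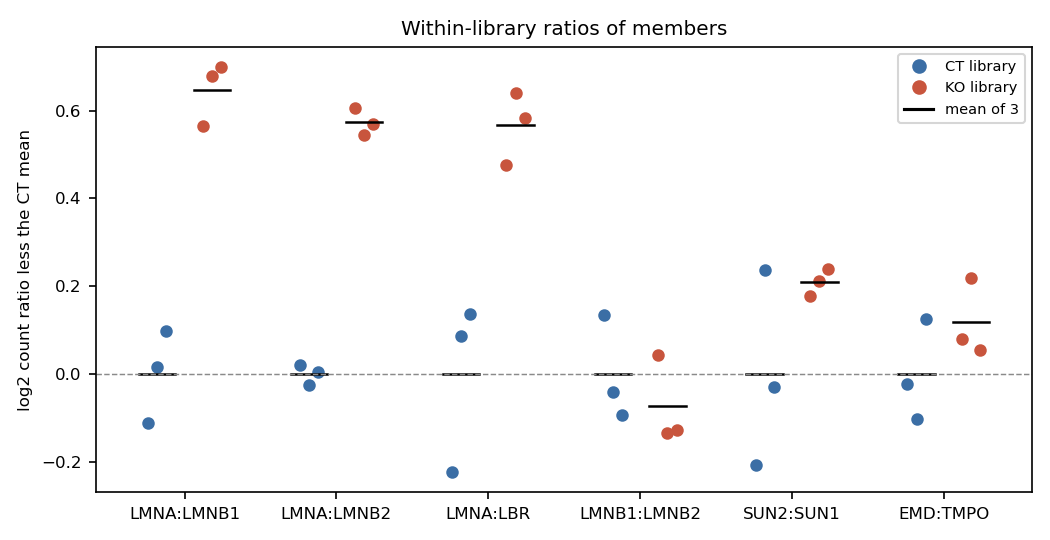
Log2 ratio of the counts of 2 genes within each library, less the mean of the control libraries, for 6 pairs; points are libraries (blue control, red KO) and bars the mean of 3. The 3 ratios with LMNA on top separate the genotypes by 0.57 to 0.65, and the other 3 overlap.

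Other proteins of the nuclear membrane were taken from a list of 30 genes, of which 22 were tested and 20 reached the filter's 0.4261 CPM in all libraries of both genotypes. Of these 20, 6 were called higher and 5 lower, beside 32.8% and 30% of all tested genes, and the median change was 0.00026 on the log2 scale, beside 0.0038 over all tested genes. These shares lie near the background. By the rule for naming, TMEM120B rose from 25.2 ± 2.16 to 37.7 ± 1.95 CPM (log2 fold change 0.58) and LEMD3, the LEM-domain protein MAN1, from 38.2 ± 1.84 to 50.4 ± 3.02 CPM (0.39). NEMP2 fell from 16.03 ± 0.54 to 10.9 ± 1.15 CPM (-0.53) and SPAG4, a SUN-domain protein, from 4.55 ± 0.26 to 3.44 ± 0.32 CPM (-0.39; all SD, n = 3; edgeR adjusted p 7.5e-09 to 0.0068 over the 4 genes). TMEM120B and LEMD3 lie on chromosome 12 and NEMP2 on chromosome 2, whose medians were 0.37 and -0.54. The LEM-domain genes, grouped after their values were seen, did not move together: beside LEMD3, LEMD2 (0.25) and ANKLE2 (0.23) were called higher (edgeR adjusted p 0.00016 and 3e-05), TMPO was called lower, and EMD and ANKLE1 (-0.41, edgeR adjusted p 0.21) were not called. ANKLE2 and TMPO also lie on chromosome 12. LEMD3 lay 0.024 above the median of that chromosome and ANKLE2 0.14 below it. LEMD1 was not tested. SYNE1, which encodes nesprin-1, was called lower at -0.23 (edgeR adjusted p 0.00039), so the giant nesprins had values of opposite sign, one called and the other not; their difference was not tested.

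Prelamin A and the B-type lamins are farnesylated, cut and methylated at the tail. Of 5 listed genes that encode the enzymes of that path or their subunits, 4 were called, 2 in each direction, beside 62.8% of all tested genes. ZMPSTE24, the protease that matures prelamin A, fell from 94.1 ± 4.17 to 73.2 ± 2.38 CPM (SD, n = 3; log2 fold change -0.37, edgeR adjusted p 1.5e-07). FNTB, the beta subunit of farnesyltransferase, fell by 0.29 on the log2 scale (edgeR adjusted p 0.0064), while its partner FNTA was at 0.026. ICMT, the methyltransferase, rose from 127 ± 3.43 to 151 ± 2.09 CPM (SD, n = 3; log2 fold change 0.25, edgeR adjusted p 1.2e-05) and RCE1, the CAAX endoprotease, rose by 0.28 on the log2 scale (edgeR adjusted p 0.0012).

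Genes of the nuclear pore, the other large assembly of the envelope, were mostly lower. Of 31 tested, edgeR called 23 lower and 0 higher, beside 30% and 32.8% of all tested genes. The number called higher was also 0 at an unadjusted p under 0.05, and 0 in DESeq2 and limma voom. The median change was -0.28 on the log2 scale. NUP54 fell from 44.2 ± 3.41 to 15.8 ± 0.54 CPM (-1.49), NUP35 from 49.4 ± 2.02 to 22.1 ± 0.53 CPM (-1.17), NDC1 from 137 ± 3.61 to 73.1 ± 1.52 CPM (-0.91) and RANBP2 from 299 ± 18.1 to 169 ± 9.97 CPM (-0.82; SD, n = 3; edgeR adjusted p at most 8.7e-14). NUP35 and RANBP2 lie on chromosome 2. RANBP2 has near-identical copies, and how shared reads were counted is not given in the sources used here.

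LMNB1, TMPO and LBR are known to be more abundant in dividing cells, so proliferation genes are given beside them. Of 37 tested, 34 were called lower and 1 higher, beside 30% and 32.8% of all tested genes, with a median log2 fold change of -0.48. BUB1, a spindle checkpoint kinase, fell by 1.21 on the log2 scale (SE 0.047), CENPA from 48.1 ± 0.86 to 22.1 ± 0.94 CPM, MCM6 from 120 ± 4.67 to 57.5 ± 1.88 CPM and CDC20 from 116 ± 6.78 to 63.3 ± 1.23 CPM (SD, n = 3; edgeR adjusted p at most 5.4e-15); the first 3 lie on chromosome 2. The falls of LMNB1 (-0.16) and TMPO (-0.12) were smaller than the median of that list, and the part of proliferation in them was not tested. In bulk RNA, fewer cells in a phase and less RNA per cell cannot be told apart. Loss of lamin B1 is also a known mark of senescence, and of 25 listed genes linked to it 16 were tested. Of these, 13 reached the filter's 0.4261 CPM in all libraries of both genotypes, with 7 called higher and 5 lower, beside 32.8% and 30% of all tested genes. CDKN1A, named outside the rule, was among the 5 (log2 fold change -0.27, edgeR adjusted p 2.4e-05). CDKN2A and CDKN2B held 0 counts in all libraries and were not tested. IGFBP7 rose from 22.6 ± 0.89 to 69.0 ± 1.98 CPM, while CXCL8 fell from 1.99 ± 0.30 to 0.59 ± 0.15 CPM (SD, n = 3; edgeR adjusted p at most 1.1e-07). IGFBP5 (0.35 ± 0.084 CPM in control, 2.43 ± 0.22 CPM in KO) and ICAM1 (0.40 ± 0.20 and 2.07 ± 0.29 CPM; SD, n = 3) passed the filter through their KO libraries, so their values are given without a test.

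The LINC complex joins the nucleus to actin and to intermediate filaments, and 35 of 36 listed cytoskeletal genes were tested. Of these 15 were called higher and 10 lower, beside 32.8% and 30% of all tested genes, with a median log2 fold change of 0.054. The share called in either direction, 71.4%, lay near the 62.8% of all tested genes. LIMA1, an actin cross-linker, rose from 7.84 ± 0.82 to 54.6 ± 2.12 CPM, and the keratins KRT19 and KRT18 rose from 74.0 ± 4.83 to 416 ± 20.2 CPM and from 779 ± 1.60 to 2583 ± 112 CPM (SD, n = 3; edgeR adjusted p at most 8e-23); LIMA1 and KRT18 lie on chromosome 12. MYL9, a myosin light chain, fell from 1.59 ± 0.058 to 0.48 ± 0.074 CPM (edgeR adjusted p 7.4e-07). A list of 24 genes tied to YAP and MRTF, factors that follow cell tension, moved in both directions. It held responsive genes and also the factors and their partners (YAP1, WWTR1, TEAD1, TEAD4, SRF, MRTFA and MRTFB). Of the 24, 7 were called higher and 12 lower, beside 32.8% and 30% of all tested genes. The 7 included YAP1 (log2 fold change 0.22), TEAD4 (0.20) and SRF (0.23), and the 12 included TEAD1 (-0.36). CCN1 fell from 27.2 ± 0.57 to 10.96 ± 0.60 CPM, FJX1 from 17.4 ± 0.84 to 6.98 ± 0.62 CPM, ANKRD1 from 11.6 ± 1.76 to 5.39 ± 0.97 CPM and AMOTL2 from 143 ± 10.8 to 91.6 ± 4.97 CPM (SD, n = 3; edgeR adjusted p at most 3.8e-08).

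Among linker histones and architectural chromatin proteins, whose amounts bear on how compact chromatin is, 5 of 24 tested genes were called higher and 15 lower, beside 32.8% and 30% of all tested genes, with a median log2 fold change of -0.27. The linker histone H1-5 rose from 20.9 ± 1.35 to 113 ± 3.90 CPM, whereas H1-3 fell from 348 ± 15.5 to 193 ± 4.14 CPM. The condensin subunit NCAPH, on chromosome 2, fell from 69.0 ± 1.16 to 30.7 ± 1.01 CPM (SD, n = 3; edgeR adjusted p at most 3.9e-16 for these 3 genes). Linker histone genes are close in sequence, and their counts may share reads.

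**Figure D4:**
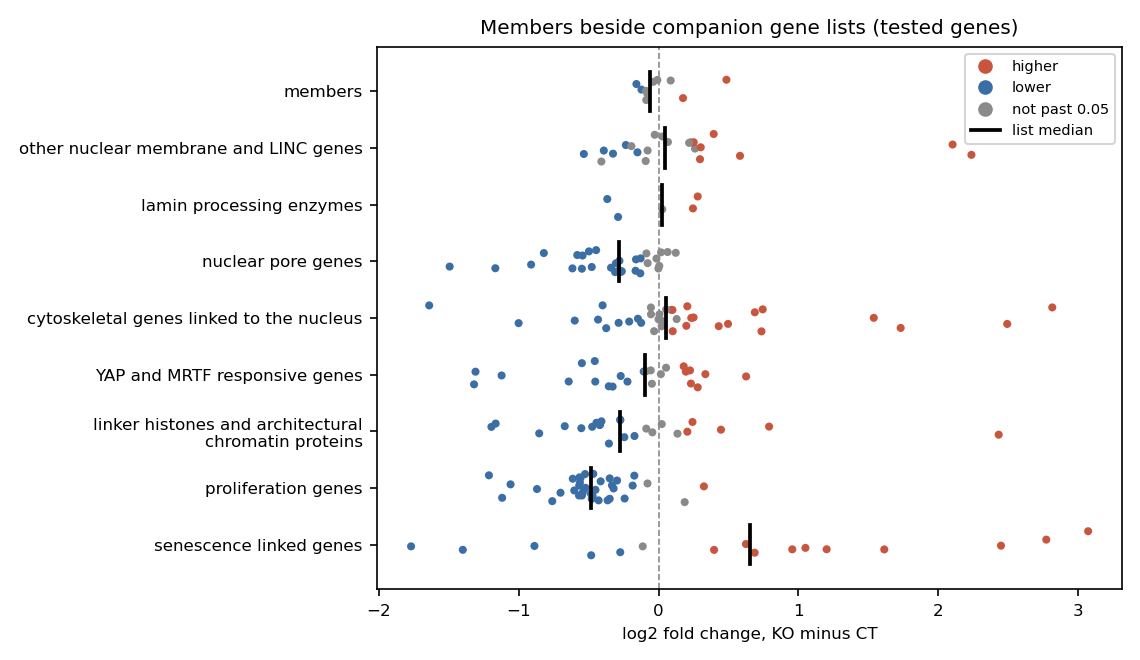
Log2 fold change (KO minus control) of every tested gene of the 10 members and of 8 companion lists, 1 point per gene with vertical jitter; red and blue mark genes called higher and lower, grey the rest, and black bars list medians. The members sit within -0.16 to 0.49, while the medians of the pore and proliferation lists are -0.28 and -0.48. In the membrane and senescence lists, 2 and 3 of the red points passed the filter through their KO libraries, so their colour carries no weight. The bars of these lists include them, at 0.048 and 0.66, and the medians without them are 0.00026 and 0.40.

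Genes with a pattern like that of LMNA and LMNB1 were sought by Pearson correlation of log2 CPM over the 6 libraries among 11016 other genes with a mean of at least 5 CPM. With 2 genotypes such a correlation mostly reflects the separation of the genotypes and shares depth and scaling between genes. Nearest to LMNA were REX1BD, UBXN6 and RASGEF1A (r = 0.9995, 0.9992 and 0.9985), and 1241 genes had r over 0.95. Nearest to LMNB1 were PVT1, TFB1M and GNAZ (r = 0.9991, 0.9985 and 0.9963), and 508 genes had r over 0.95.

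**Figure D5:**
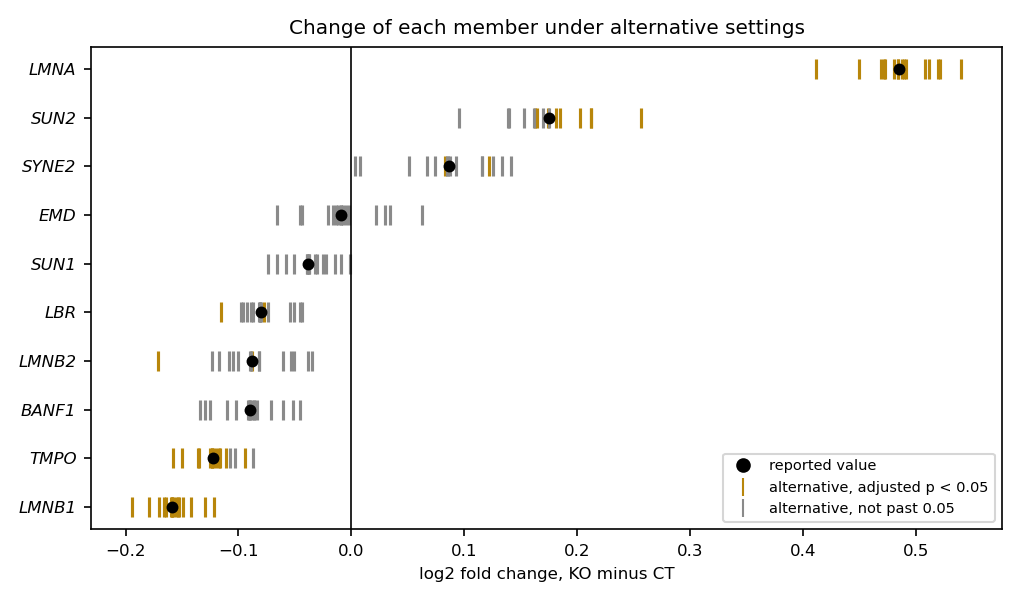
Log2 fold change (KO minus control) of each of the 10 genes as reported (black points) and under 16 alternative scalings, filters, tests and left-out libraries (ticks; gold where the adjusted p is under 0.05, grey elsewhere). The ticks of LMNA (0.41 to 0.54) and LMNB1 (-0.19 to -0.12) are all gold, while those of SUN2 (0.095 to 0.26) and TMPO (-0.16 to -0.087) are mixed.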

How the data were processed

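RNA-seq gene counts of 3 control and 3 KO libraries were used, with groups taken from the labels. The authors deposited raw counts, whole numbers for each gene and library. Per the labels, libraries were made from total RNA with a stranded Illumina kit. The submitters' processing notes name STAR 2.6.1c, edgeR 3.30.0 and hg19, without saying which step each served; the counter, its annotation and its strand setting are not given in the sources used here. Of 62486 gene IDs, 58642 (93.8%) matched a symbol; 0 rows named no gene. RefSeq (GRCh38.p14), matched by symbol, gave the chromosome for 87.9% of tested genes. No per-sample column went unmapped (0 columns).

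Counts were fitted in R 4.3.3 with edgeR 4.0.16 (filterByExpr, TMM scaling, a robust quasi-likelihood fit with genotype alone), Benjamini-Hochberg adjustment over all tested genes and a threshold of 0.05. CPM used TMM-scaled library sizes. Standard errors were taken from the F statistic, and 95% intervals are normal intervals from them. Libraries held 18065062 to 48364919 counts, and libraries of a genotype differed by 1.66 to 6.7 times sampling noise (chi-square per degree of freedom, pairs of libraries). Alternatives were other scalings and filters, DESeq2 1.42.0, limma 3.58.1 (voom), a replicate block, thinning to the smallest total count, removal of mitochondrial genes and each library left out.

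The 10 genes, the companion lists and the tests were chosen with earlier results of these data known. Named were all 10 genes, SETDB1 and, per list, the 4 called genes of largest change with a mean of at least 1 CPM; others are said to be chosen later, and 1 gene that the rule names is not reported here. ChIP-seq peaks, domains and compartments lie on hg19, of which no gene annotation was used here, so they were not analysed here.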

Additional observations from a re-analysis of the deposited data

How the results depend on the processing

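Of 704 values under alternatives, all planned, 661 were labelled the same. For this a fold change kept its sign and its side of the threshold. Ratios and values less the chromosome median stayed within the spread between libraries. Counts of called genes were judged only by their ratio to the reported count, a looser rule, so the 3 members called in DESeq2 passed beside 4. Of the rest, 23 moved, 10 lost and 6 gained a call, and 4 changed sign, all of EMD. LMNA and LMNB1 kept their calls in all 16 alternative fits. No scaling moved the median of all genes by over 0.1. The causes of the changes below were not tested.

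SUN2 missed the threshold under upper quartile scaling (0.14), DESeq2 (0.17) and thinning (0.14), TMPO with no filter (-0.087); LBR passed under upper quartile scaling (-0.12) and SYNE2 with no filter (0.12). EMD was 0.022 with library size only and 0.030 with no filter. Less the chromosome median, LMNB1 was -0.13, LMNB2 -0.43, TMPO -0.49 and SUN1 -0.095. Members called higher numbered 1 under upper quartile scaling, DESeq2 and thinning, and members called lower 1 with no filter. Beside them, 5432 of 17767, 5185 of 17767 and 5334 of 16755 tested genes were called higher, and 5136 of 38852 lower.

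Leaving out each library gave log2 fold changes of -0.17 to -0.035 for LMNB2, -0.15 to -0.10 for TMPO, 0.095 to 0.26 for SUN2 and -0.066 to 0.063 for EMD (positive without control replicate 3 or KO replicate 3). It gave 2 to 4 called members, 1 to 2 higher and 1 to 3 lower, 1 to 2 proliferation genes higher, and 0 to 1 called antisense or pseudogene transcripts (TMPO-AS1), 0 to 1 of them higher. The same fits called 10174 to 11085 of all genes, with 18217 to 18430 genes tested.

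With the replicate block, 7 members were called, 3 higher and 4 lower, beside 11655 of 17767 tested genes. LMNB2 (-0.088), LBR (-0.078) and SYNE2 (0.083) were added with edgeR adjusted p of 0.020, 0.038 and 0.044. The labels do not say that the numbers pair the libraries, and the check did not settle it: over all tested genes the deviations of same-numbered libraries correlated at 0.17, 0.10 and 0.062. Over genes of at least 5 CPM these were 0.38, 0.28 and 0.12, but control replicate 3 correlated better with another number (0.26). In ratios the block left the differences as they were (LMNA to LMNB1 0.65, two-sided exact sign-flip p 0.25, the smallest it can give). With 3 libraries a genotype, the intervals of the uncalled members (SE 0.045 to 0.092) limit what could be seen.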

Other observations

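Proteins that tether telomeres to the nuclear envelope in meiosis were on the membrane list, and 2 of them are singled out here after their values were seen. KASH5, a meiotic KASH protein that binds SUN1, had 4, 3 and 6 counts in control and 23, 39 and 21 counts in KO libraries. MAJIN, a membrane anchor of meiotic telomeres, had 5, 4 and 2 counts in control and 16, 38 and 11 counts in KO libraries. All KO libraries lay above all controls for both genes on the CPM scale, at levels under 1 CPM in the mean of each genotype. Over all tested genes, 65.8% showed no overlap. Both passed the filter on low counts through their KO libraries alone, so no test is given and the lack of overlap carries no weight. Of their partners, TERB1 held 3 to 13 counts a library and was not tested, and TERB2 held 0 counts in all 6 libraries.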
